A study of Mus musculus with 6 samples.

Results

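The clustered protocadherins are the genes whose symbol begins with Pcdha, with Pcdhg, or with Pcdhb followed by a number. The rule found 58 of the 32564 genes with a matched transcript, and 89 transcript models belonged to them. There were 14 genes in the alpha cluster, 22 in the beta cluster and 22 in the gamma cluster, which lie one after the other on mouse chromosome 18 (GRCm38). The alpha genes span 36930184 to 37187661, the beta genes 37264938 to 37524479 and the gamma genes 37661793 to 37841873. The alpha cluster held 12 variable genes and the C-type genes Pcdhac1 and Pcdhac2. The gamma cluster held 12 A genes, 7 B genes and the C-type genes Pcdhgc3, Pcdhgc4 and Pcdhgc5. A pair of gene identifiers carried the symbol Pcdha11. One of them (ENSMUSG00000007440.10) starts 117 bases from RefSeq's start of Pcdha10 and is called Pcdha10 here, while the other (ENSMUSG00000102206.5) keeps the name Pcdha11.

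Protocadherins of these clusters are cell-surface adhesion molecules that bind their own kind on a neighbouring cell, and neurons use the combination they make to tell their own branches from those of others. In the alpha and gamma clusters each variable first exon has its own promoter and is spliced to constant exons shared by the whole cluster, whereas each beta gene is a separate unit without that shared tail. Neurons are known to choose among the variable promoters cell by cell, with the DNA-binding protein CTCF and cohesin bringing promoters to an enhancer, while the C-type genes are made more uniformly. Astrocytes also make gamma protocadherins and use them in contacts with neurons.

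RNA was sequenced from cells sorted as quiescent neural stem cells from the subependymal zone, the stem cell niche beside the lateral ventricles. The antagomir group had 3 libraries from mice injected into the ventricles with an antagomir, a modified oligonucleotide that blocks a microRNA, here miR-204. The vehicle group had 3 libraries from mice injected with artificial cerebrospinal fluid. All mice were 3 months old gfap:GFP animals of the strain the labels spell C56BL/6J, and cells were taken 3 days after injection. Green fluorescent protein in these mice is driven by the promoter of Gfap, which astrocytes also use. A control oligonucleotide is not among the labels, and a general response to injected oligonucleotide cannot be told apart from a response to blocked miR-204. Nor do the labels tie libraries to separate animals or to pools, and the p-values therefore reflect only how these 6 libraries scatter, some of which may be technical.

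Libraries held 14866453 to 19694409 estimated counts, of which 0.122 to 0.158% fell on clustered protocadherins. Such counts come from kallisto, which divides a read that matches several transcripts among them. Levels are given in TPM, estimated counts scaled by transcript length and library total, which can be set side by side between genes, or in CPM, counts scaled by library size alone. A level of 3 counts, 0.152 to 0.202 CPM, was taken as the limit of detection and covers counting error only. Markers of quiescent stem cells and astrocytes summed to 7723 to 11334 CPM in antagomir libraries and 10646 to 11821 CPM in vehicle libraries. Markers of oligodendrocytes, which the labels do not name, summed to 14684 to 20736 CPM with antagomir and 9122 to 19046 CPM with vehicle. Neuroblast markers summed to 2727, 1231 and 1199 CPM in antagomir libraries 1 to 3, against 1723, 715 and 791 CPM in vehicle libraries 1 to 3, and microglia markers to 91.4, 151 and 241 CPM against 1766, 217 and 123 CPM. Antagomir library 1 was thus the highest in neuroblast markers and vehicle library 1 stood apart in microglia markers. Oligodendrocyte precursor markers summed to 2677 to 3513 CPM with antagomir and 3215 to 3445 CPM with vehicle. Ependymal markers summed to 1188 to 2007 CPM with antagomir and 1720 to 2235 CPM with vehicle, and mature neuron markers to 619 to 1108 CPM and 547 to 770 CPM. In such sorted bulk samples, fewer cells of a type and less RNA per cell cannot be told apart, and the part of these markers in the results that follow was not tested.

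miR-204, the target of the antagomir, and its relative miR-211 share a seed, bases 2 to 8, which pairs with messages and is shown in capitals. The mature sequences are from RefSeq (GRCm38.p6) and are shown because the match to this seed is what the 3′ untranslated regions (UTRs) were searched for.
mmu-miR-204-5p: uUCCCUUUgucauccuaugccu
mmu-miR-211-5p: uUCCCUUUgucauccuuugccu

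The seed match AAAGGGA was searched for on the transcript strand of the 3′ UTR of each member's transcript models. It was found in all 22 gamma genes, 2 times in each, because these genes share 1 constant 3′ UTR, annotated at 1744 to 1747 bases. In Pcdhgb8 this UTR belongs to the model that held all its counts, which is annotated as a polymorphic pseudogene. The match was found in 0 of 14 alpha genes, most of which share a constant 3′ UTR of 2404 bases. It was found in 4 of 22 beta genes, Pcdhb16 with 2 matches and Pcdhb19, Pcdhb20 and Pcdhb22 with 1 each, in Pcdhb22 within the longer of its models, which held 64.8% of its counts. For comparison, the first 1747, 2404 and 1092 bases, the median UTR lengths of gamma, alpha and beta genes, held the match in 19.2%, 25.9% and 12.6% of other genes with a 3′ UTR at least that long in their most abundant coding model. These shares are not like for like, since members were searched over the full annotated UTR of every model. In their most abundant coding model alone, 21 gamma, 0 alpha and 3 beta genes held the match. The gamma matches are copies of the same stretch and count as 1 region, and a match is a description of letters, not a site shown to be used.

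**Figure D1:**
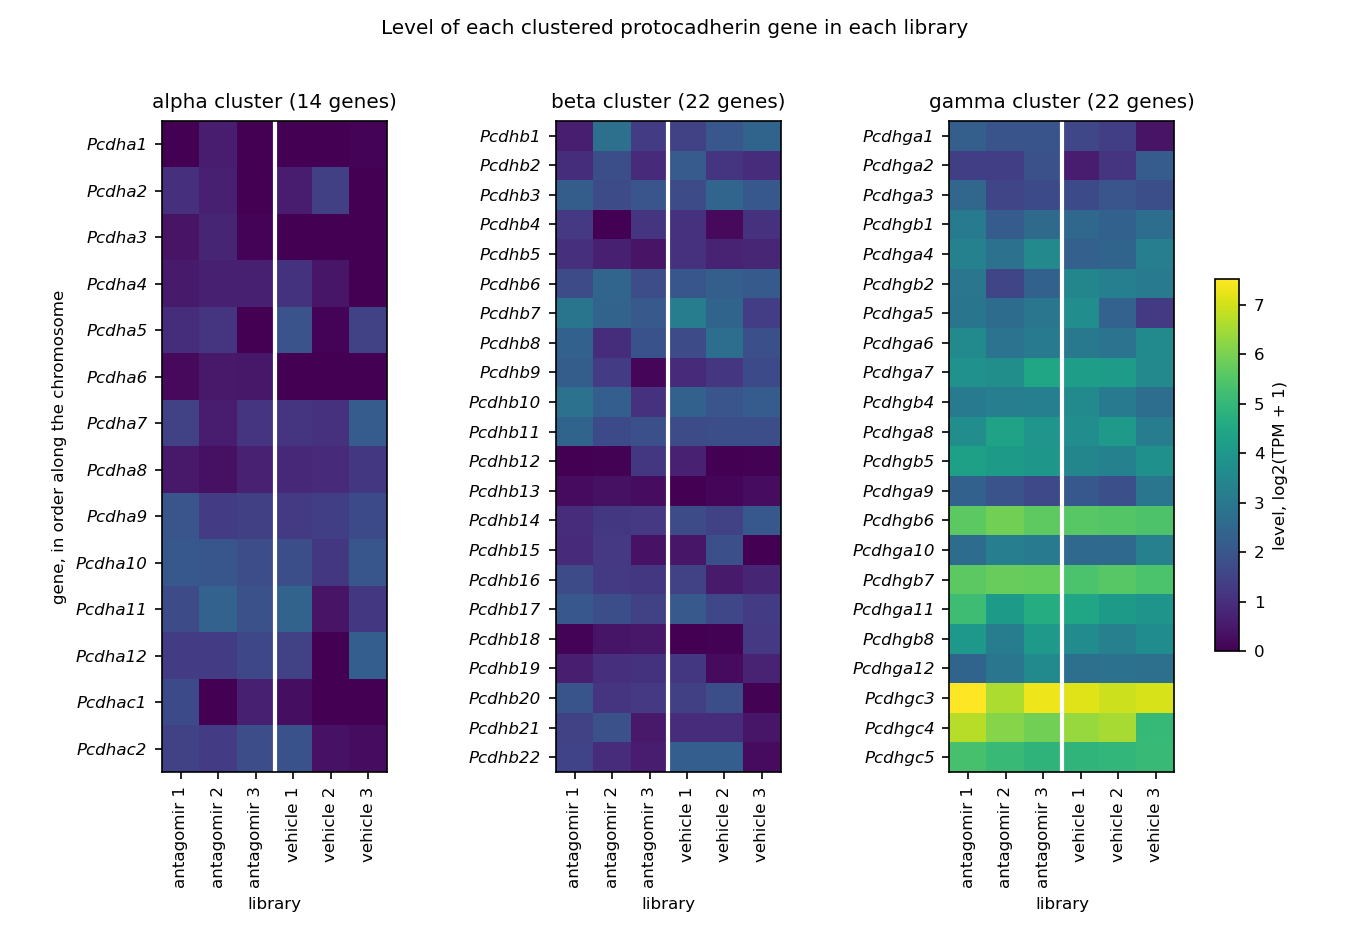
Level of each clustered protocadherin gene, as log2(TPM + 1), in the 3 antagomir and 3 vehicle libraries, with the genes of each cluster in chromosome order from top to bottom. The brightest rows are the C-type genes Pcdhgc3, Pcdhgc4 and Pcdhgc5 and the B genes Pcdhgb6 and Pcdhgb7, while alpha and beta genes stay dark and patchy across libraries.

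The gamma cluster supplied most of the clustered protocadherin message in these sorted libraries. Over the 6 libraries it held 89.4% of the members' summed TPM, the beta cluster 7.62% and the alpha cluster 2.95%. Gamma genes summed to 591, 442 and 511 TPM in antagomir libraries 1 to 3 and to 480.0, 457 and 404 TPM in vehicle libraries 1 to 3. Beta genes summed to 49.2, 41.6 and 29.3 TPM with antagomir and 46.4, 44.5 and 34.6 TPM with vehicle. Alpha genes summed to 19.1, 16.6 and 14.8 TPM with antagomir and 19.4, 7.68 and 17.4 TPM with vehicle. In each cluster the groups overlapped, and the alpha sum of vehicle library 2 was the lowest of the 6.

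The 5 C-type genes alone made up 46.0% of the members' summed TPM, nearly all of it from the gamma C-type genes. C-type genes were 49.8 ± 5.11% of gamma TPM in antagomir libraries and 51.8 ± 2.51% in vehicle libraries (SD, n = 3 each). These shares include 1 short Pcdhgc4 model of mostly shared sequence, described further on. By group means, that model held 54.6 of 262 C-type TPM with antagomir and 50.1 of 233 C-type TPM with vehicle. In each library 3 gamma genes sufficed for 50% of the cluster's TPM, led by Pcdhgc3 with 21.8 to 33.0%. The message of the beta cluster was spread more evenly, with 5 to 6 of 22 genes needed for the same share and a leading gene at 11.2 to 17.4%. In the alpha cluster 3 to 4 of 14 genes were needed, and the leading gene differed: Pcdha10 in antagomir library 1, Pcdha11 in antagomir libraries 2 and 3 and vehicle library 1, Pcdha2 in vehicle library 2 and Pcdha12 in vehicle library 3.

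Pcdhgc3 (ENSMUSG00000102918.1, 37806364 to 37841873), which is known to act in dendrite branching, was the most abundant member. It had 183, 96.4 and 159 TPM in antagomir libraries 1 to 3 and 143, 123 and 133 TPM in vehicle libraries 1 to 3, and ranked 1179 of 32564 genes by mean TPM. The antagomir libraries lay both above and below the vehicle libraries. Its log2 fold change of antagomir over vehicle was 0.06 (SE 0.24; edgeR quasi-likelihood test, Benjamini-Hochberg adjusted p = 0.985).

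Pcdhgc4 (ENSMUSG00000023036.14, 37815079 to 37841873), which supports neuron survival in mice, had 105, 70.7 and 60.2 TPM in antagomir libraries and 81.0, 91.8 and 31.6 TPM in vehicle libraries. Vehicle library 3 was the lowest and antagomir library 1 the highest, and the groups overlapped. Its log2 fold change was 0.23 (SE 0.34; edgeR adjusted p = 0.955). This level depends on 1 short transcript model, described further on.

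Pcdhgc5 (ENSMUSG00000102543.5, 37819513 to 37841873), known from synapses of maturing neurons, was the steadiest C-type gene. It had 39.1, 33.5 and 28.9 TPM in antagomir libraries, against 29.5, 30.4 and 32.6 TPM in vehicle libraries. The coefficient of variation over the 6 libraries was 11.6%, against 21.4% for Pcdhgc3 and 35.1% for Pcdhgc4. Its log2 fold change was -0.09 (SE 0.17; edgeR adjusted p = 0.962) and became 0.08 when counts were corrected for effective length.

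Of the alpha C-type genes, Pcdhac2 (ENSMUSG00000102697.1, 37143503 to 37187657), which spaces serotonergic axons in mice, had 1.76, 1.497 and 2.41 TPM in antagomir libraries and 2.69, 0.283 and 0.185 TPM in vehicle libraries. Pcdhac1 (ENSMUSG00000103255.1, 37090013 to 37187657) had 2.25, 0 and 0.582 TPM in antagomir libraries and 0.213, 0 and 0 TPM in vehicle libraries. Both genes were thus low and uneven, and Pcdhac1 was listed at 0 in 3 of 6 libraries.

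The Pcdhac1 values correspond to 115.3, 0 and 32.1 estimated counts with antagomir and 12.5, 0 and 0 with vehicle. Its fitted log2 fold change, 3.56 (SE 1.90; edgeR adjusted p = 0.949), was 1.88 without antagomir library 1 and 8.67 without vehicle library 1. That of Pcdhac2 was 0.77 (SE 0.94; edgeR adjusted p = 0.953), and was 2.98 without vehicle library 1, 0.32 without vehicle library 2 and 0.28 without vehicle library 3. Neither gene passed the test in any of these fits. C-type genes made up 16.7 ± 6.68% of alpha TPM with antagomir and 6.57 ± 7.38% with vehicle (SD, n = 3 each), with a vehicle range of 1.06 to 15.0%.

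The gamma B genes were led by a pair of similar level, Pcdhgb6 (ENSMUSG00000103088.1, 37742094 to 37841873) and Pcdhgb7 (ENSMUSG00000104063.1, 37751600 to 37841873). Pcdhgb6 had 48.8, 59.3 and 49.3 TPM in antagomir libraries and 46.9, 44.8 and 41.7 TPM in vehicle libraries. Pcdhgb7 had 48.3, 54.1 and 53.0 TPM in antagomir libraries and 40.8, 46.8 and 40.9 TPM in vehicle libraries. Every antagomir library was above every vehicle library for both genes in TPM, while in CPM, the scale of the test, the Pcdhgb6 groups overlapped. Log2 fold changes were 0.17 (SE 0.14) for Pcdhgb6 and 0.21 (SE 0.13) for Pcdhgb7, and edgeR's adjusted p was 0.949 for both. Without antagomir library 2, the highest for Pcdhgb6, its log2 fold change was 0.07.

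Pcdhgb5 (ENSMUSG00000103749.1, 37731009 to 37841873) was the third B gene by level and had the smallest p of the members that were higher with antagomir. It had 18.4, 16.2 and 14.7 TPM in antagomir libraries against 9.94, 8.95 and 12.6 TPM in vehicle libraries, so the groups did not overlap. The log2 fold change was 0.58 (SE 0.21), which did not pass the test (edgeR adjusted p = 0.949). Pcdhgb2 (ENSMUSG00000102748.1, 37689828 to 37841873) stood the other way, with 6.79, 1.96 and 4.05 TPM in antagomir libraries against 9.89, 8.56 and 7.77 TPM in vehicle libraries. All its antagomir libraries lay below the vehicle libraries. Its log2 fold change was -1.07 (SE 0.41; edgeR adjusted p = 0.949), and -0.72 without antagomir library 2. The other B genes, Pcdhgb1, Pcdhgb4 and Pcdhgb8, had log2 fold changes of 0.04, 0.02 and 0.22.

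Summed over the 7 B genes, the level was 152.4, 151.5 and 149.98 TPM in antagomir libraries and 135, 129 and 126 TPM in vehicle libraries. The mean was 151 ± 1.25 TPM with antagomir and 130 ± 4.48 TPM with vehicle (SD, n = 3 each), and the groups did not overlap in TPM or in CPM. Gamma B was the only summed subgroup without overlap, and 10.5% of all tested genes did not overlap in CPM. Pcdhgb6 and Pcdhgb7 made up most of the sum, at means of 48.5 and 47.3 of 141 TPM, while Pcdhgb2 went the other way. No p is attached to this sum, which is a description of members chosen with results known. An exact two-sided p from 3 against 3 libraries also cannot be below 0.1. The 12 A genes summed to 104 ± 12.8 TPM with antagomir and 85.1 ± 6.08 TPM with vehicle, with overlap.

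**Figure D2:**
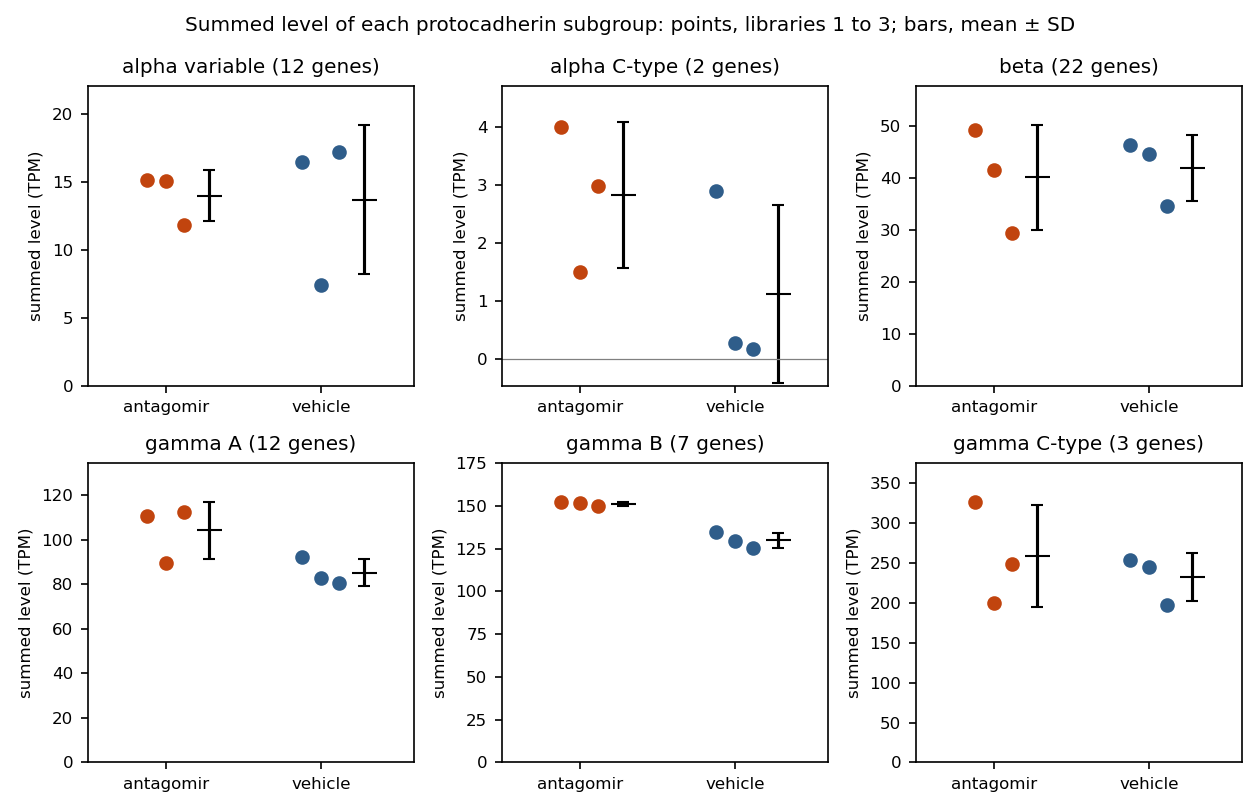
Summed TPM of each subgroup of clustered protocadherins in antagomir libraries (left, orange) and vehicle libraries (right, blue), with 1 point per library and the mean ± SD over n = 3 beside them. Gamma B is the panel in which the 2 groups do not overlap, at 149.98 to 152.4 TPM with antagomir and 126 to 135 TPM with vehicle, and the grey line in the alpha C-type panel marks 0.

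Among the A genes, Pcdhga11 (ENSMUSG00000102742.1, 37755731 to 37841873) was the most abundant, with 35.7, 16.0 and 24.0 TPM in antagomir libraries and 20.8, 16.2 and 13.7 TPM in vehicle libraries. Antagomir libraries 1 and 3 were the highest of the 6 and antagomir library 2 lay within the vehicle range. Its log2 fold change was 0.51 (SE 0.29; edgeR adjusted p = 0.949), and 0.18 without antagomir library 1. Pcdhga7 had 12.9, 12.2 and 21.0 TPM with antagomir and 17.5, 16.3 and 10.6 TPM with vehicle. Pcdhga8 had 11.96, 19.1 and 14.2 TPM with antagomir and 11.9, 15.8 and 7.89 TPM with vehicle. Both pairs of groups overlapped, with log2 fold changes of -0.03 (SE 0.27) for Pcdhga7 and 0.29 (SE 0.28) for Pcdhga8. That of Pcdhga8 lay between 0.08, without vehicle library 3, and 0.53, without vehicle library 2, and was 0.09 without antagomir library 2.

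Pcdhga1 (ENSMUSG00000103144.1), the first gene of the cluster, was a low member with separate groups. It had 3.86, 2.89 and 2.88 TPM in antagomir libraries and 2.06, 1.62 and 0.330 TPM in vehicle libraries, a log2 fold change of 1.19 (SE 0.62; edgeR adjusted p = 0.949). Without vehicle library 3, the lowest, it was 0.74. Pcdhga9 (ENSMUSG00000102440.1) had 4.03, 2.80 and 2.16 TPM with antagomir and 3.21, 2.59 and 6.81 TPM with vehicle. The groups overlapped, the log2 fold change was -0.66 (SE 0.49), and without vehicle library 3 it was -0.04. The 7 other A genes ranged from 1.88 to 8.27 TPM on average.

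Levels in the gamma cluster were higher towards its end. Over the 19 A and B genes, Spearman's rho between chromosome order and mean TPM was 0.642. The 9 genes from Pcdhga1 to Pcdhga7 had a median of 6.01 TPM and a highest value of 15.1 TPM. The 10 from Pcdhgb4 to Pcdhga12, nearer the constant exons, had a median of 12.6 TPM and reached 48.5 TPM. Over the 12 alpha variable genes rho was 0.832, whereas over the 22 beta genes it was -0.345. These values describe genes that share libraries and, in alpha and gamma, constant exons whose reads are divided by a model.

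The variable alpha genes were low throughout, between 0.0936 and 2.60 TPM on average. Pcdha10 (37005203 to 37187657) had 3.25, 3.01 and 2.46 TPM in antagomir libraries and 2.47, 1.35 and 3.07 TPM in vehicle libraries. Pcdha11 (37010712 to 37187657) had 2.29, 4.201 and 2.66 TPM with antagomir and 4.29, 0.308 and 1.35 TPM with vehicle. Pcdha9 had 2.95, 1.49 and 1.71 TPM with antagomir and 1.44, 1.62 and 2.26 TPM with vehicle. All 3 pairs of groups overlapped, with log2 fold changes of 0.26 (SE 0.40), 0.34 (SE 0.77) and 0.14 (SE 0.43) in the same order of genes.

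Pcdha8 (ENSMUSG00000103800.1, 36992371 to 37187657) was the tested alpha gene with separate groups. It had 0.435, 0.269 and 0.624 TPM in antagomir libraries and 0.821, 0.913 and 1.34 TPM in vehicle libraries, from 22.0, 12.5 and 33.9 estimated counts with antagomir and 47.6, 47.1 and 86.6 with vehicle. Each vehicle library was above each antagomir library at low counts. The log2 fold change was -1.29 (SE 0.61; edgeR adjusted p = 0.949).

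A set of alpha genes was seen in 1 group or a few libraries only. Pcdha3 had 15.4, 33.8 and 3.1 estimated counts in antagomir libraries and 0 in each vehicle library, and Pcdha6 had 5.9, 17.6 and 19.2 with antagomir and 0 in each vehicle library. Pcdha1 had 21.6 estimated counts in antagomir library 2, 3.3 in vehicle library 3 and 0 elsewhere. These 3 genes were too low for the test. They are listed at 0 by a model that divides shared reads, so a 0 here does not show that the gene was silent, and allows up to 3 counts.

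Mean levels of the 22 beta genes ran from 0.147 to 4.71 TPM. Pcdhb7 (ENSMUSG00000045062.4, 37341702 to 37345202) was the most abundant, with 6.65, 4.28 and 3.29 TPM in antagomir libraries and 8.09, 4.35 and 1.599 TPM in vehicle libraries. Pcdhb10 had 6.02, 3.73 and 1.101 TPM with antagomir and 4.07, 2.94 and 3.53 TPM with vehicle. Pcdhb6 had 2.38, 4.50 and 2.44 TPM with antagomir and 3.01, 3.87 and 3.35 TPM with vehicle. In all 3 genes the groups overlapped and the log2 fold change was within its SE of 0, at -0.05 (SE 0.56), -0.03 (SE 0.59) and -0.22 (SE 0.41).

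Pcdhb14 (ENSMUSG00000044043.4, 37447656 to 37456350) had the smallest p of all members. It had 0.933, 1.31 and 1.39 TPM in antagomir libraries against 2.28, 1.83 and 3.25 TPM in vehicle libraries, from 77.6, 100.3 and 124.2 estimated counts with antagomir and 218.5, 155.2 and 346.5 with vehicle. Every antagomir library was below every vehicle library. The log2 fold change was -1.09 (SE 0.35), which did not pass the test (edgeR adjusted p = 0.949), and it stayed between -1.28 and -0.81 when each library was left out in turn. Pcdhb12 and Pcdhb13 were too low to test. Pcdhb12 had 0, 1.0 and 39.5 estimated counts with antagomir and 20.2, 0 and 1.0 with vehicle, and Pcdhb13 had 6.0, 8.0 and 7.1 with antagomir and 0, 3.0 and 8.1 with vehicle.

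**Figure D3:**
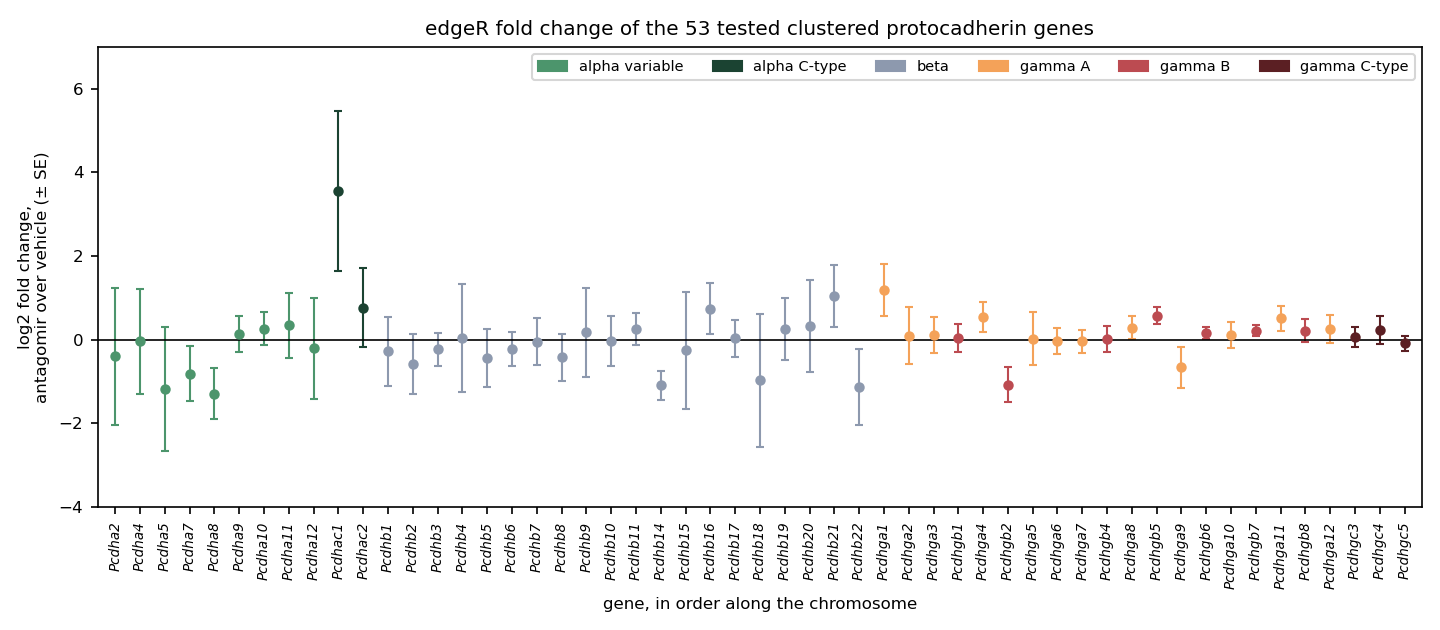
The log2 fold change of antagomir over vehicle (edgeR, ± SE) for the 53 tested members in chromosome order, coloured by subgroup. Gamma genes have the shorter error bars and sit mostly near 0, apart from Pcdhgb2 at -1.07 and Pcdhga1 at 1.19, while alpha and beta genes have long ones, with Pcdhac1 highest at 3.56.

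With the threshold at a Benjamini-Hochberg adjusted p of 0.05, the edgeR test called 0 of the 53 tested members, and 0 of 15012 genes (0.0%). The smallest adjusted p was 0.949. An unadjusted p under 0.05 was reached by 3 members, against 616 of all genes (4.1%). These were Pcdhgb5, which was higher with antagomir (2.18% of all genes), and Pcdhb14 and Pcdhgb2, which were lower (1.93% of all genes). Without vehicle library 1 the number was 8 of 55 members, against 1133 of 15371 genes. Without vehicle library 3 it was 5 of 56 members, against 495 of 15393 genes. The groups did not overlap in 3 tested members that were higher with antagomir, Pcdhga1, Pcdhgb5 and Pcdhgb7 (5.07% of all tested genes), and in 3 that were lower, Pcdha8, Pcdhb14 and Pcdhgb2 (5.45% of all tested genes). Both shares are near the background. Pcdha3 and Pcdha6, too low for the test, did not overlap either and were higher with antagomir. The shares above cover tested genes only, and none was worked out for genes too low to test. DESeq2 called 0 members and 1 gene in all. In counts simulated with the spread of these libraries, the edgeR test found 15 of 50 genes changed 2-fold and 39 of 50 changed 4-fold. It found 40 of 50 genes changed 8-fold. Changes of 2-fold or less in a member, and some larger ones, could thus be missed. By median SD, members scattered more than all tested genes, as given further on. The share found at the members' own spread was not tested.

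The median log2 fold change was 0.04 over the 53 tested members and -0.01 over all tested genes. By cluster, 17 of 22 gamma genes, 8 of 20 beta genes and 5 of 11 alpha genes had a positive log2 fold change, against 49.1% of all genes. The medians were 0.11 for gamma, -0.14 for beta and -0.04 for alpha. With each library left out in turn the gamma count lay between 12 of 22, without vehicle library 2, and 18 of 22, without antagomir library 2. It was 13 of 22 without antagomir library 1 and 16 of 22 without vehicle library 1. The beta count was 5 of 21 without antagomir library 1 and 11 of 20 without antagomir library 3. The gamma values are not independent of each other, since the genes share constant exons.

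Members also differed in how evenly they were found across libraries. All 22 gamma genes were above 3 estimated counts in every library, against 15 of 22 beta genes and 6 of 14 alpha genes. In at least 1 library 13 members were listed at 0, of which 8 were alpha and 5 beta genes. The median SD of log2 CPM within groups was 0.42 for gamma, 0.89 for beta and 1.43 for alpha genes, against 0.33 over all tested genes. The SD was larger at low levels. Between 1 and 5 CPM its median was 1.53 for 19 members and 0.83 for all 2126 genes, and between 5 and 20 CPM it was 0.57 for 22 members and 0.44 for 3401 genes. Between 20 and 100 CPM it was 0.41 for 8 members and 0.26 for 6555 genes, and between 100 and 1000 CPM 0.25 for 4 members and 0.20 for 2214 genes.

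The number of members above 3 estimated counts was 55, 55 and 54 of 58 in antagomir libraries and 53, 50 and 50 in vehicle libraries. The antagomir libraries were each higher. Over all genes the numbers above 3 counts were 15780, 16438 and 16297 with antagomir and 16306, 16230 and 16177 with vehicle, and overlapped. Library totals were 16775884, 14866453 and 18079548 estimated counts with antagomir and 17742181, 16358774 and 19694409 with vehicle, and the part of depth was not tested. With a limit of 10 estimated counts the numbers were 53, 54 and 51 with antagomir and 53, 48 and 48 with vehicle, and the groups overlapped. Most of the difference lay in the alpha cluster, where 13, 13 and 11 of 14 genes were above 3 counts with antagomir and 11, 8 and 9 with vehicle.

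The profile of levels over gamma genes was alike in all libraries. Pearson's r of log2(TPM + 1) over the 22 gamma genes was 0.846 to 0.973 between libraries of the same group (6 pairs) and 0.866 to 0.959 between antagomir and vehicle libraries (9 pairs). Over the 22 beta genes it was 0.427 to 0.691 within groups and 0.425 to 0.720 between groups. Over the 14 alpha genes it was 0.233 to 0.740 within groups and 0.172 to 0.796 between groups. In each cluster the range between groups was thus much the same as within them. These are correlations across genes, which are not independent replicates.

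How surely a read can be given to 1 gene differed between the clusters. In the median alpha model 36.4% of the 31-base words occurred in no other gene, in the median beta model 88.2% and in the median gamma model 54.5%. Estimated counts above 0 were whole numbers, to within 0.01, in 43 of 140 beta values, against 1 of 77 alpha values and 3 of 200 gamma values. A value that is not whole holds reads divided among models, of the same gene or of others, and most values in all 3 clusters were of this kind. The most exposed gene was Pcdha4, whose main coding model has 2.18% of words to itself and shares 44.6% with genes outside the naming rule. Among such genes Gm42416, which overlaps Pcdha4 on the same strand, shared the most words with members. Each gamma gene overlaps 4 genes outside the rule on the same strand, Gm42416 among them, and some alpha genes overlap 1. Strand was not recorded by the library kit, and 8 gamma, 1 beta and 4 alpha genes overlap a gene on the opposite strand, so reads of these pairs cannot be told apart.

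Pcdhgc4 was the abundant gene most affected by its models. One of its 3 models, with a short first exon of 153 bases ahead of the constant exons, has only 6.74% of words to itself. It took 56.5, 53.9 and 47.2% of the gene's estimated counts in antagomir libraries and 56.0, 69.4 and 44.8% in vehicle libraries. A model that is almost wholly shared sequence thus carried 56.0% of the gene's counts over all libraries.

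Without this short model, Pcdhgc4 had 24.0 ± 4.60 TPM with antagomir and 18.04 ± 5.53 TPM with vehicle (SD, n = 3 each), against 78.6 ± 23.4 and 68.1 ± 32.1 TPM over all models. Its level would then be below those of Pcdhgb6, Pcdhgb7 and Pcdhgc5. Its log2 fold change was 0.45 (edgeR adjusted p = 0.949) in an alternative, chosen after seeing the data, that kept models with at least 20% of words to themselves, against 0.23 over all models. By estimated counts, the other gamma C-type genes were carried by their full-length coding model, Pcdhgc3 with 85.9 to 98.0% and Pcdhgc5 with 92.9 to 97.2%. By TPM, this model held 66.1 to 86.3% of Pcdhgc5. A short Pcdhgc5 model of 593 bases, with 25.9% of words to itself, held 9.72 to 30.6% of its TPM. Over all members, the 10 retained-intron models held 1.49 to 3.55% of member counts per library.

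**Figure D4:**
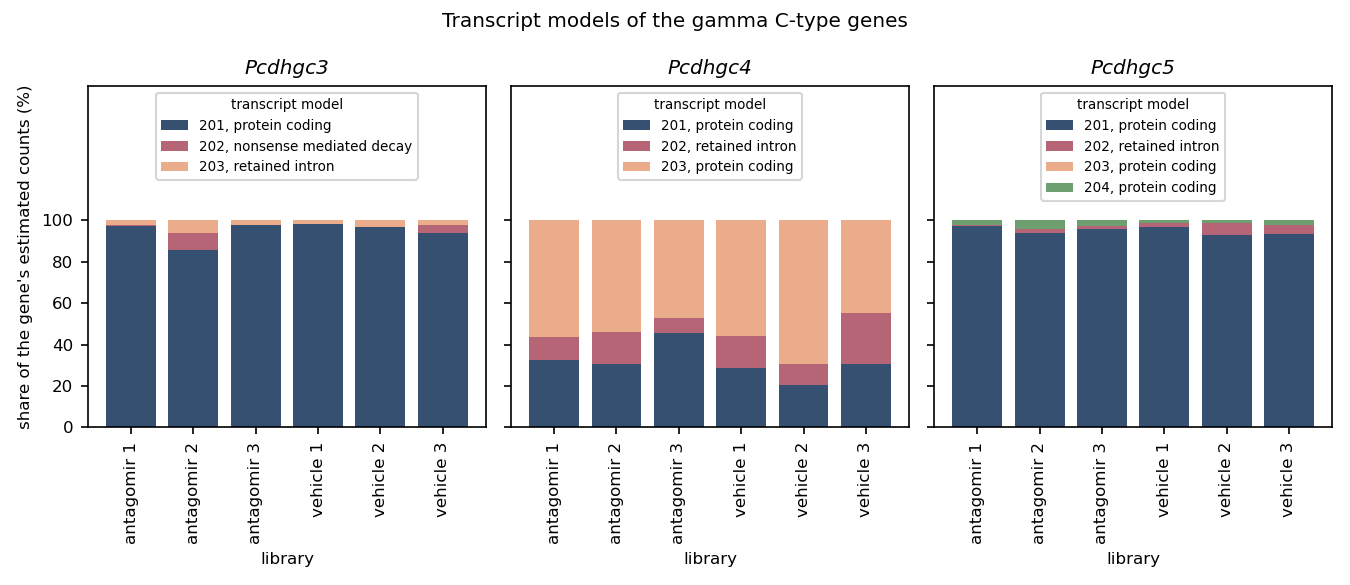
Share of the estimated counts of Pcdhgc3, Pcdhgc4 and Pcdhgc5 held by each transcript model, in percent, in the 3 antagomir and 3 vehicle libraries. The full-length coding model fills the bars of Pcdhgc3 and Pcdhgc5, whereas in Pcdhgc4 the coding model with the short first exon takes 44.8 to 69.4%.

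Genes that work with the clusters were given by list. Of 18 genes of promoter choice and chromatin, all were tested, 0 passed, 15 had a positive and 3 a negative log2 fold change, and the median was 0.12. Ctcf, whose protein binds the variable promoters, had 74.3 ± 8.405 TPM with antagomir and 70.4 ± 5.82 TPM with vehicle, with a log2 fold change of 0.18 (SE 0.17). Smchd1, which silences protocadherin promoters in mice, had 17.4 ± 1.33 TPM with antagomir and 15.4 ± 3.07 TPM with vehicle, with a log2 fold change of 0.14 (SE 0.20). The smallest p values were those of the cohesin subunit gene Stag1, with a log2 fold change of 0.57 (SE 0.29), and the DNA methyltransferase gene Dnmt3a, with 0.35 (SE 0.18).

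Of 19 genes of signalling and processing partners, 18 were tested and 0 passed, with 11 positive and 7 negative log2 fold changes and a median of 0.08. Ret, a receptor kinase, was at or under 3 counts. Cyfip2, a part of the actin-regulating complex that protocadherins recruit, had 33.5 ± 10.6 TPM with antagomir and 19.9 ± 8.28 TPM with vehicle, a log2 fold change of 0.67 (SE 0.31). Nlgn1, a synaptic adhesion protein, had 14.2 ± 1.69 TPM with antagomir and 17.6 ± 1.05 TPM with vehicle, a log2 fold change of -0.36 (SE 0.18).

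Of 12 protocadherins outside the clusters, 11 were tested and 0 passed, with 7 positive and 4 negative log2 fold changes and a median of 0.07. Pcdh9 had 154 ± 9.39 TPM with antagomir and 131 ± 19.1 TPM with vehicle, a mean level next to that of Pcdhgc3, and a log2 fold change of 0.20 (SE 0.13). Pcdh11x had 11.3 ± 1.21 TPM with antagomir and 9.13 ± 1.75 TPM with vehicle, a log2 fold change of 0.36 (SE 0.22). In all 3 lists edgeR's smallest adjusted p was 0.949.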

How the data were processed

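Estimated counts and TPM per transcript were made by the authors with kallisto, and the notes also name sleuth and build mm10, per the submitters' processing notes; with no versions. The deposited expected counts are not normalized, and the deposited TPM are scaled by effective length, per the file headers. Per the labels' protocols, cDNA came from a SMART-Seq v4 kit and reads were paired-end.

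Of 99567 transcripts, 98294 (98.7%) matched GENCODE M21 (GRCm38) by identifier without version. Counts were summed per gene and rounded. edgeR 4.0.16 (TMM, filterByExpr with a minimum count of 10, robust quasi-likelihood, group only) tested 15012 genes, with Benjamini-Hochberg adjustment over all of them at 0.05. The step was tested on simulated data: of 50 genes each changed 1.5, 2, 4 and 8-fold it found 0, 15, 39 and 40, with 10 false calls among 14713 genes. Chi-square per gene was 23.7 to 99.0 over the 15 library pairs, so none were duplicates. Library totals were 14866453 to 19694409 counts. The limit of 3 counts covers counting error only, while SD and SE cover the scatter between libraries.

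The members and lists were chosen with earlier results of these data known. Genes described singly were the 3 most abundant of alpha variable, beta, gamma A and gamma B, all C-type genes, and the 4 tested members with the smallest p in each direction. Pcdha1, Pcdha2, Pcdha3, Pcdha4, Pcdha6, Pcdha12, Pcdhb12, Pcdhb13, Pcdhb16, Pcdhb19, Pcdhb20, Pcdhb22 and 3 B genes given by value lie outside that rule. They were named after their values were seen. From each pathway list the 2 genes of smallest p were named, with Ctcf and Smchd1. Alternatives were DESeq2 1.42.0, its size factors, limma-voom (limma 3.58.1), other filters, a length correction, a replicate block, each library left out, and models with their own words.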

Additional observations from a re-analysis of the deposited data

How the results depend on the processing

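No member was called under any of the 14 alternatives run. Over all genes DESeq2 called 1 gene and every other alternative 0; an unadjusted p under 0.05 was reached by 616 genes in edgeR, 781 in DESeq2, 1064 in limma-voom, 1284 with the replicate block and 1133 without vehicle replicate 1. Of 306 values of the 22 named members, 283 kept direction and side of the threshold. Limma-voom turned Pcdha9 to -0.069, Pcdhb7 to 0.069 and Pcdhga7 to 0.13, the replicate block turned Pcdhb7 to 0.16, and the length correction turned Pcdhgc5 to 0.079; the cause was not tested. Leaving out each library gave -0.22 to 0.38 for Pcdha9, -0.018 to 0.55 for Pcdha10, -0.16 to 1.30 for Pcdha11, -0.44 to 0.63 for Pcdhb7, -0.61 to 0.42 for Pcdhb10, -0.44 to -0.096 for Pcdhb6, -0.31 to 0.12 for Pcdhga7, -0.14 to 0.30 for Pcdhgc3, -0.072 to 0.43 for Pcdhgc4 and -0.27 to 0.018 for Pcdhgc5. For summed CPM it gave 0.03 to 0.24 for gamma, -0.32 to 0.00 for beta, -0.25 to 0.28 for alpha and -0.12 to 0.27 for C-type genes. By estimated counts, C-type genes were 47.8% of gamma in vehicle libraries. The labels do not state that replicate numbers pair the libraries, and the values do not decide it. Deviations of same-numbered libraries correlated at 0.195, 0.075 and 0.028, the first being the highest of all pairs between groups. Not every library correlated best with its own number. With the replicate block 0 genes were called and 7 of 53 members had an unadjusted p under 0.05, against 3 without it. Over all 15012 tested genes the number also rose, from 616 without the block to 1284 with it. Levels of the alpha and beta genes were low, 14 of them averaging under 1 TPM, and the part of depth in this was not tested. Estimates for genes that share exons depend on how reads were divided, which these files do not let one undo.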
